A study of Mus musculus with 33 samples.

Results

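Gene expression was compared between Tg2576 mice given the compound TO901317 and Tg2576 mice given vehicle. Arrays were taken by their labels, and the comparison uses 22 of the 33 arrays of the series, 11 treated and 11 vehicle, with 1 animal per array. All animals were males on a mixed SJL × C57BL/6J background. Tg2576 mice, heterozygous here, carry human APP bearing the Swedish mutation of familial Alzheimer's disease, expressed from the prion promoter. Treated animals received TO901317 by gavage at 50 mg/kg each day, and control animals received vehicle alone. Animals were 20 weeks old by the design text, which states 7 days of dosing, whereas the treatment protocol states 5. Animals were killed 1 hour after the last dose and perfused with saline, and RNA of the right hippocampus was hybridised to Affymetrix MOE430 2.0 arrays. The third group, 11 wild-type littermates given vehicle, served here to estimate the spread and as a level for reference. No arrays of treated wild-type mice were used, so every difference is one between treated and untreated carriers of the transgene.

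Liver X receptors (LXR) are nuclear receptors that bind oxidised cholesterol and work as dimers with the retinoid X receptors, and TO901317 is a synthetic compound that activates them. LXR target genes include Abca1 and Abcg1, which move cholesterol out of the cell onto lipoproteins, Apoe, the main apolipoprotein of the brain, and Srebf1, which switches on fatty acid synthesis. Cholesterol synthesis itself is driven mainly by Srebf2, whose processing falls when sterols accumulate. The brain makes almost all of its own cholesterol, since plasma lipoproteins do not cross the blood-brain barrier.

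Values are linear MAS5 signals, scaled so that the trimmed mean of every array was 99.97. Array medians of the 22 arrays lay between 19.4 and 28.9. RNA quality, read as the log2 ratio between the 3' and 5' control probe sets of Gapdh, ran from -0.31 to -0.11 in treated animals and from -0.32 to 0.11 in vehicle animals, where replicates 3, 4 and 5 held the highest values, 0.11, 0.08 and -0.08. The summed signal of 8 pyramidal cell markers of the CA fields, such as Wfs1 and Fibcd1, was 1995 to 2511 in vehicle and 1904 to 2285 in treated animals, so the labelled tissue carried its markers in both groups. Choroid plexus markers, which enter with the ventricle wall, varied most: their summed signal ran from 268 to 8303 in vehicle and from 1008 to 9461 in treated animals, with medians of 1516 and 3078. Precision is limited by having 11 arrays in each group.

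Between treated and vehicle Tg2576 animals, 31 of 45037 probe sets passed (0.0688%), 19 higher (0.0422%) and 12 lower (0.0266%) in treated animals. A probe set passed at a Benjamini-Hochberg adjusted p under 0.05 in limma, which was fitted on log2(signal + 16) over all 33 arrays. Differences are given on that scale, which understates the changes of dim genes. The largest difference among the 31 was 1.747-fold. Of these probe sets 23 named 1 gene and stood for 11 genes that rose and 10 that fell. The other 8, 7 rises and 1 fall, named no gene or several. At an unadjusted p under 0.05 there were 3976 probe sets (8.83%), 4.28% higher and 4.55% lower, where 2252 would be expected with no differences. In 2 probe sets (0.00444%) no treated animal overlapped any vehicle animal, those of Srebf1 and Cyp2d22, and both were higher in treated animals. With each array centred on its median the count was 16, 13 higher and 3 lower, which moves the share of rises from the 61.3% of the deposited scaling. The count also moved with single animals. It was 10, 11, 7, 11 and 12 without vehicle replicates 3, 4, 7, 9 and 10, and 16, 12, 8, 12 and 7 without treated replicates 1, 5, 6, 9 and 10. Without vehicle replicates 3 and 4 together it was 7. The call of 7 probe sets held in all 22 fits that left out 1 animal, namely those of Abca1, Srebf1, Scd1, Cyp2d22, Ppp1cb and Idi1 and the brighter one of Abcg1. Each of the other 16 called probe sets with 1 gene name lost its call without vehicle replicate 7 and without treated replicate 10.

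**Figure D1:**
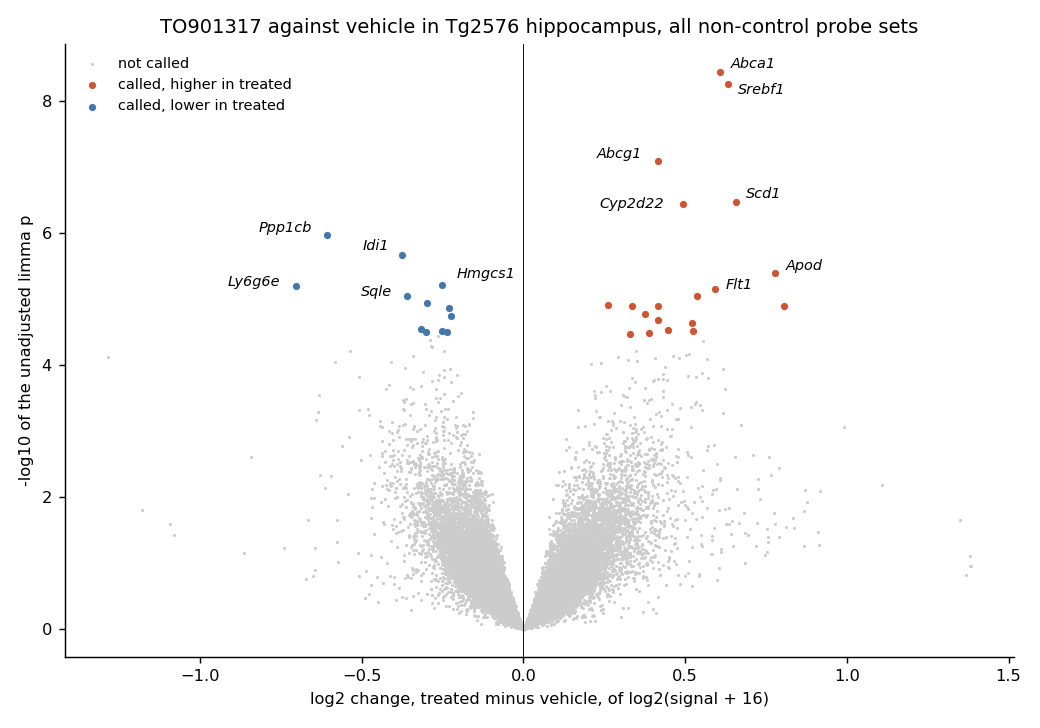
Difference between treated and vehicle Tg2576 animals on the log2(signal + 16) scale (horizontal axis) against -log10 of the unadjusted limma p (vertical axis) for 45037 probe sets, 1 point each. The 19 probe sets that rose are red and the 12 that fell are blue; Abca1 and Srebf1 lie highest, and no called point reaches a difference of 1.

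Abca1 and Abcg1, both sterol exporters, rose. Abca1, the transporter that loads cholesterol onto apolipoproteins, read between 278 and 345 in vehicle animals, with a median of 306, and between 336 and 675 in treated animals, with a median of 485. Of the 11 treated animals 10 lay above the highest vehicle animal, and treated replicate 2 was the 1 that overlapped. The mean signal was 311 ± 24.0 in vehicle and 488 ± 89.2 in treated animals (SD, n = 11 each), beside 326 ± 53.3 in wild type. The log2 change was 0.61 (SE 0.08, limma adjusted p = 0.000122). Its dimmer probe sets differed by 0.41 and 0.40 and did not pass (adjusted p = 0.231 and 0.262).

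Abcg1, which exports sterols to mature lipoproteins, ran from 212 to 305 in vehicle animals around a median of 268.5, and from 297 to 432 in treated animals around a median of 349.9. Here too 10 of 11 treated animals lay above the highest vehicle animal. It rose by 0.42 on the log2 scale (SE 0.06, limma adjusted p = 0.00122), and its dimmer probe set rose by 0.38 (adjusted p = 0.0383). The call of the dimmer probe set held in 6 of 22 fits that left out 1 animal. By the brighter probe set the mean was 266 ± 26.7 in vehicle, 361 ± 42.8 in treated and 305 ± 31.9 in wild-type animals (SD, n = 11 each).

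Srebf1 encodes the transcription factor SREBP-1, and its signal separated the groups completely. It lay between 146 and 204 in vehicle animals, with a median of 188, and between 222 and 358 in treated animals, with a median of 277. The mean was 181 ± 21.97 in vehicle and 290.5 ± 46.2 in treated animals (SD, n = 11 each), beside 174 ± 31.9 in wild type, and the log2 change was 0.63 (SE 0.09, limma adjusted p = 0.000122). Scd1, the desaturase that makes oleate from stearate, had means of 806 ± 109 and 1295 ± 294 and rose by 0.66 (log2 scale, SE 0.10, adjusted p = 0.0033). Its signal ran from 690 to 996 in vehicle and from 929 to 1989 in treated animals, and 10 of 11 treated animals were above every vehicle animal. The dim second probe set of Scd1 differed by 0.57 and did not pass (adjusted p = 0.101). These 4 genes, with Cyp2d22, were the ones called in every fit that was run, those without single animals included.

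**Figure D2:**
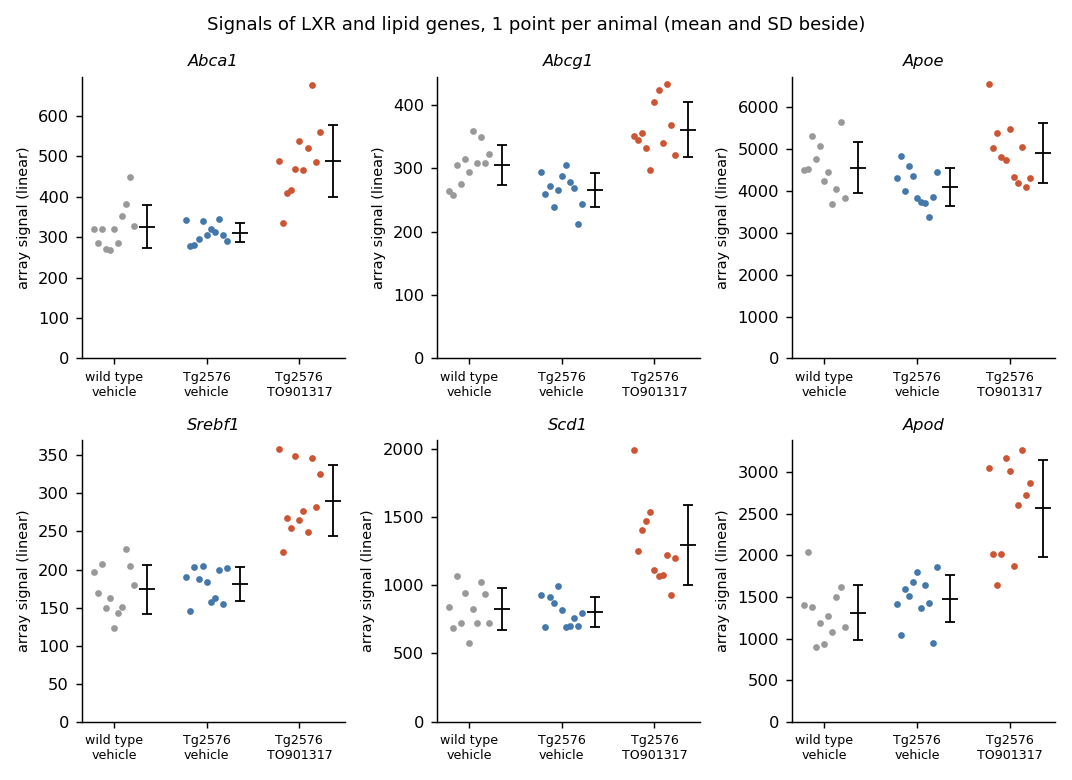
Linear array signal (vertical axes, from 0) of 6 lipid genes in wild-type vehicle, Tg2576 vehicle and Tg2576 TO901317 animals, 1 point per animal (n = 11 each), with the mean and SD beside each group. Srebf1 shows no overlap between treated and vehicle Tg2576 animals, Abca1, Abcg1, Scd1 and Apod each show 1 treated animal within the vehicle range, and Apoe overlaps widely.

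Promoter sequence is shown for genes on both sides of the response, with the stretches that match known response elements. RefSeq starts (GRCm38.p6) were used, and the 250 bases before each start were searched on both strands; of the 21 genes called, 14 had such a window, 17 windows in all. The half-sites GGTTA and CGGTCA separated by any 4 bases, an LXR element whose form was taken with the Abca1 and Srebf1 promoters known, was found in 4 of 32851 windows (0.0122%), those of Abca1, of 1 start of Srebf1, of Fasn and of Prrg4. The windows of Abca1 (chr4:53159896-53160145, minus strand) and Srebf1 (chr11:60210472-60210721, minus strand) are given 5′ to 3′ on the gene's strand, with the match, which reads on the opposite strand, in capitals.
Abca1: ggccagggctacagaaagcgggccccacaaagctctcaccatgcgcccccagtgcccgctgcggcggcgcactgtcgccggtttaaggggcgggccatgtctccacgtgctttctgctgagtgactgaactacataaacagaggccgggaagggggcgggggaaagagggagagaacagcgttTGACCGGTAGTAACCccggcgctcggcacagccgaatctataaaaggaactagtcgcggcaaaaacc
Srebf1: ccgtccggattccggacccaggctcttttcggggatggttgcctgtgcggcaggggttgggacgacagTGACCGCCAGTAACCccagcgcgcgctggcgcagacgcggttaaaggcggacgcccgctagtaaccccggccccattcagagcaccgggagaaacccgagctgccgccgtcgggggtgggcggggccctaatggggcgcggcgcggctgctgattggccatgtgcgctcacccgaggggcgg

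The match lay at -67 to -53 from the start in Abca1 and at -182 to -168 in Srebf1. Fasn, the fatty acid synthase gene, held the same 15 letters as Abca1, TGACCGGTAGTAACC, at -225 to -211, yet its signal of 518 ± 60.8 in vehicle and 566 ± 36.8 in treated animals (SD, n = 11 each) gave a log2 difference of 0.13 that did not pass (limma adjusted p = 0.51). Prrg4 differed by 0.06 (adjusted p = 0.942). The textbook direct repeat, GGTCA and AGGTCA separated by any 4 bases, was in 7 windows (0.0213%), none of them of a called gene. A match describes letters only, and no binding was measured.

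Of the 20 measured LXR targets outside fatty acid synthesis, 2 rose, none fell and 18 did not pass; over all 18193 genes, each represented by its brightest probe set, 0.0934% were called, 0.0495% higher and 0.044% lower. The median log2 change of the list was 0.08, against -0.01 over all genes. At an unadjusted p under 0.05 it held 5 members higher and 2 lower, where 9.82% of all genes reached that limit, 4.03% higher and 5.79% lower. Members named here beyond the called genes were picked after their values were seen, as were those of the other lists. The Apoe signal was 4095 ± 445 in vehicle and 4908 ± 722 in treated animals (SD, n = 11 each), a log2 difference of 0.25 that did not pass (adjusted p = 0.231). All 11 treated animals lay above the vehicle median for Apoe, and under quantile normalization the difference was 0.19 and passed (adjusted p = 0.011). The share of all probe sets with such a count against the vehicle median was not taken. Here and below the count therefore describes single genes and is no test. Nr1h3, at a log2 change of 0.04, had 10 of 11 treated animals above its vehicle median. Apoc1, the neighbouring apolipoprotein gene, read 34.9 ± 10.0 and 63.0 ± 19.2 (0.62, adjusted p = 0.117). Mylip, whose product marks lipoprotein receptors for degradation, differed by 0.08, Lpcat3, a phospholipid remodelling enzyme, by 0.07 and Lpl, the lipoprotein lipase gene, by 0.17, and none of these 3 passed. The other sterol exporters Abcg4, Abcg5 and Abcg8 differed by 0.03, -0.10 and -0.27 and did not pass, the last 2 at dim signals. The receptor gene Nr1h3 was dim, at 25.0 ± 8.01 and 25.7 ± 5.57, and differed by 0.04 (adjusted p = 0.952). Of 7 receptor and partner genes listed, 4 were measured, and the others have no value here. Among the 4 measured the smallest p was that of Rxra (0.19, adjusted p = 0.42), none passed, and the median was 0.01. Abca1 and Abcg1 passed while most of the named targets did not, and a target that did not pass is not shown to be unchanged.

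Of 19 genes of Srebf1 and fatty acid synthesis, Srebf1 and Scd1 rose and no gene fell, 17 missed the limit, and the median was 0.04. At an unadjusted p under 0.05, 6 were higher and 2 lower. No further member passed. Fads2, which starts the synthesis of long polyunsaturated fatty acids, read 349.8 ± 66.2 and 445 ± 51.6 (0.35, adjusted p = 0.0771), and Scd2, the main stearoyl desaturase of brain, 2817 ± 180 and 3087 ± 180 (0.13, adjusted p = 0.263). The lowest vehicle values of Fads2, 250.8, 222 and 297, were those of replicates 3, 4 and 5, the vehicle arrays of highest Gapdh ratio, against 341 to 419.9 in the others. Without replicates 3 and 4 Fads2 differed by 0.24 (adjusted p = 0.191), and with the Gapdh ratio as a covariate by 0.26 (adjusted p = 0.0895). Acacb, which encodes a carboxylase of mitochondria, differed by 0.41 at dim signals of 10.4 and 19.0 (adjusted p = 0.389). Values were below 0 for Acly, which supplies acetyl-CoA in the cytosol (-0.15, adjusted p = 0.292), and for Elovl6, the elongase of palmitate (-0.17, adjusted p = 0.313). Acaca, the carboxylase that commits carbon to fatty acids, differed by -0.02. Scd1 was thus the 1 enzyme of the list that was called.

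Of the genes of cholesterol synthesis Idi1, Hmgcs1, Sqle and Fdft1 fell. Idi1, the isomerase that makes the building block of all isoprenoids, lay between 309 and 411 in vehicle animals, with a median of 355, and between 179 and 321 in treated animals, with a median of 280.4. Of 11 treated animals 9 lay below the lowest vehicle animal, and treated replicate 6 was lowest. Its mean was 361 ± 34.9 in vehicle and 276 ± 38.3 in treated animals (SD, n = 11 each), and it fell by 0.37 on the log2 scale (SE 0.07, limma adjusted p = 0.0139). Its dimmer probe set differed by -0.33 and did not pass (adjusted p = 0.317).

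Hmgcs1, the cytosolic synthase that commits acetyl-CoA to the pathway, ran from 2304 to 2844 in vehicle and from 1756 to 2383 in treated animals, and 10 of 11 treated animals lay below every vehicle animal. It fell by 0.25 (SE 0.05, limma adjusted p = 0.028), a second probe set also fell by 0.25 (adjusted p = 0.0484), and 2 further probe sets differed by -0.25 and -0.23 without passing. Sqle, the squalene epoxidase gene, ran from 502 to 703 in vehicle and from 323 to 538 in treated animals, with 10 of 11 below the lowest vehicle animal, and fell by 0.36 (SE 0.07, adjusted p = 0.0312). Fdft1, squalene synthase, fell by 0.30 by 1 probe set (adjusted p = 0.0323), from 659 ± 80.1 to 532.5 ± 55.6, while its brightest differed by -0.26 (adjusted p = 0.145). All 4 enzymes act between acetyl-CoA and the first sterol.

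**Figure D3:**
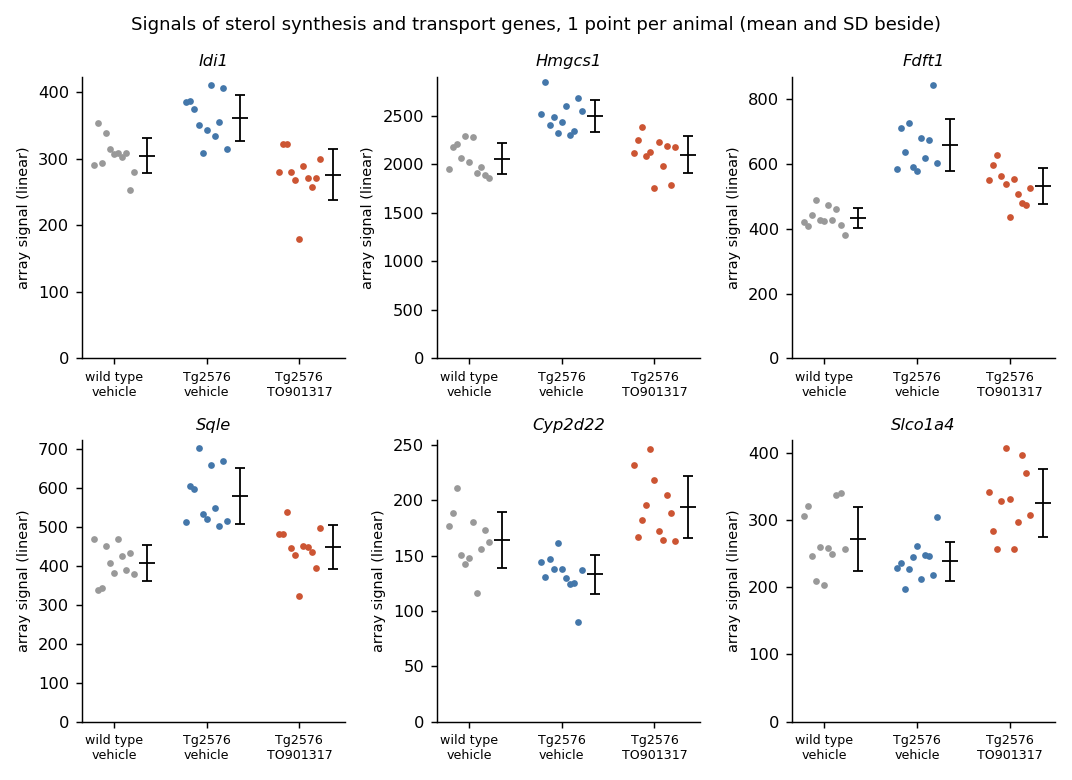
Linear array signal (vertical axes, from 0) of 4 cholesterol synthesis genes and of Cyp2d22 and Slco1a4 in wild-type vehicle, Tg2576 vehicle and Tg2576 TO901317 animals, 1 point per animal (n = 11 each), with the mean and SD beside each group. Idi1, Hmgcs1, Fdft1 and Sqle lie lower in the treated than in the vehicle group of Tg2576 animals, and Cyp2d22 shows no overlap between them.

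The calls of these falls changed with the arrays, the scaling and the variance model. Without vehicle replicates 3 and 4, Idi1 differed by -0.37 (adjusted p = 0.0519), Hmgcs1 by -0.26 (adjusted p = 0.0608) Sqle by -0.32 (adjusted p = 0.108) and Fdft1 by -0.29 (adjusted p = 0.108), so all 4 calls ended, at values near those with all arrays. With each array centred on its median the calls ended in the same way, with an adjusted p of 0.0947, 0.147, 0.117 and 0.145. Without the trend and robust settings of limma Hmgcs1, Sqle and Fdft1 each had an adjusted p of 0.0636, while Idi1 passed (adjusted p = 0.0345). The Fdft1 call also ended with the 22 Tg2576 arrays alone (adjusted p = 0.0708). With tissue marker scores as covariates it ended too (adjusted p = 0.0514). Single animals ended the call of Hmgcs1 in 4 of 22 fits, those without vehicle replicates 7 and 10 and treated replicates 6 and 10, and that of Sqle in 8, where its value ran from -0.39 to -0.31. The call of Fdft1 ended in 11, those without vehicle replicates 2, 3, 4, 7, 9 and 10 and treated replicates 5, 6, 8, 9 and 10. In wild-type animals Idi1 read 304.5 ± 26.7, Hmgcs1 2057 ± 159, Sqle 408 ± 46.0 and Fdft1 433 ± 31.4 (SD, n = 11 each), below the vehicle Tg2576 means in all 4 genes. Both differences use the same vehicle Tg2576 arrays, and treated animals were not tested against wild type here.

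Over the pathway, 2 of 8 measured genes from acetyl-CoA to squalene fell by their brightest probe set, none rose, and the median was -0.22. Of 10 genes from squalene to cholesterol 1 fell, none rose, and the median was -0.23, with all 10 below 0 and 8 at an unadjusted p under 0.05. These medians stayed between -0.25 and -0.15 under the pseudocounts, filters, scalings, covariates and probe set rules tried. Cyp51, the lanosterol demethylase, read 195 ± 19.2 and 161 ± 20.4 (-0.26, adjusted p = 0.101), and Hsd17b7, a sterol ketone reductase, 152 ± 13.9 and 128 ± 12.0 (-0.22, adjusted p = 0.103). Sc5d, a desaturase of the last steps, read 216 ± 38.8 and 166 ± 31.2 (-0.35, adjusted p = 0.148), Nsdhl 338 ± 44.3 and 281 ± 19.7 (-0.24, adjusted p = 0.161), and the methyl oxidase gene Msmo1 764 ± 192 and 575 ± 115 (-0.39, adjusted p = 0.365). Fdps, which makes farnesyl diphosphate, differed by -0.25 (adjusted p = 0.2), and Ggps1, on the branch to protein prenylation, by 0.05. In Fdps, Hsd17b7, Nsdhl and Msmo1 all 11 treated animals lay below the vehicle median.

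The sterol response element TCACNCCAC was found in 346 windows (1.05%), and among called genes in that of Hmgcs1, at -137 to -129. Its window (chr13:119690101-119690350, plus strand) is shown with the match in capitals, as the counterpart on the falling side to the windows of Abca1 and Srebf1.
Hmgcs1: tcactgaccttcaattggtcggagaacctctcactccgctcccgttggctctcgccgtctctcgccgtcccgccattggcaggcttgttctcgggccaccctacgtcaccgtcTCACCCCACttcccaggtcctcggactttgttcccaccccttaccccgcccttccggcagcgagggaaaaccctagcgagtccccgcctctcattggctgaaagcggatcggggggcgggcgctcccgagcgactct

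CCAAT boxes, which neighbour such elements in many sterol genes, were in windows of 8 of the 14 called genes and of 10133 of all 27025 genes with a window; by window the share was 33.8%. Genes that sense sterols or take them up did not pass: of 11 measured none rose or fell, and the median was -0.06. Srebf2, the driver of the synthesis genes, read 385 ± 33.1 and 367 ± 74.1 (-0.09, adjusted p = 0.796), Insig1, which holds its protein in the endoplasmic reticulum, 226 ± 27.0 and 214 ± 23.4 (-0.07, adjusted p = 0.836), and Insig2 378 ± 20.4 and 430.0 ± 57.5 (0.17, adjusted p = 0.398). Of 8 genes of cholesterol turnover and storage none passed either, with a median of -0.01. Cyp46a1, which turns neuronal cholesterol into the hydroxysterol that leaves the brain, differed by -0.07, and Ch25h, which makes another LXR ligand, by 0.47 at signals of 13.3 and 22.9 (adjusted p = 0.332). Synthesis enzymes were thus called and genes that sense, take up or dispose of sterols were not, and the lists were not tested against each other.

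Apod showed the largest rise with a gene name. It encodes a lipocalin that carries small lipids and is made by glia and vascular cells, and its signal ran from 949 to 1864 in vehicle animals, with a median of 1506, and from 1639 to 3263 in treated animals, with a median of 2731. Of the treated animals 10 lay above the vehicle range. Means were 1481 ± 287 in vehicle, 2565 ± 579.9 in treated and 1312 ± 331 in wild-type animals (SD, n = 11 each), and Apod rose by 0.78 (log2 scale, SE 0.14, limma adjusted p = 0.023). The call ended without vehicle replicate 7, treated replicate 6 or treated replicate 10, at values between 0.72 and 0.84 over the 22 fits, and without vehicle replicates 3 and 4 together (0.80, adjusted p = 0.0608). With the replicate number as a block the Apod call also ended (adjusted p = 0.0694). Its dim second probe set differed by 0.30 (adjusted p = 0.817), and with the mean over its probe sets Apod differed by 0.54 (adjusted p = 0.244). Apod was the 1 member called of 10 other apolipoproteins and lipoprotein receptors, whose median was 0.03. Clu, the second abundant apolipoprotein of brain, differed by 0.10, and Lrp1, a receptor for Apoe, by 0.12, and neither passed.

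Cyp2d22 and Slco1a4 belong to drug handling. Cyp2d22, a cytochrome P450 gene, lay between 90.3 and 161 in vehicle and between 163 and 246 in treated animals, with no overlap, and rose by 0.49 on the log2 scale (SE 0.08, limma adjusted p = 0.0033). Wild-type animals read 164 ± 25.6, between the vehicle mean of 133 ± 17.7 and the treated mean of 194 ± 28.4 (SD, n = 11 each). The dimmer Cyp2d22 probe set differed by 0.38 (adjusted p = 0.117). Slco1a4, an organic anion transporter of the blood-brain barrier, read 238.5 ± 28.6 in vehicle and 325 ± 51.2 in treated animals, and 7 of 11 treated animals lay above the vehicle range of 198 to 305. It rose by 0.42 (SE 0.08, adjusted p = 0.0323), and the call held in 12 of 22 fits. It ended without vehicle replicates 3, 4, 7, 9 and 10 and treated replicates 1, 5, 6, 9 and 10, each left out alone. The wild-type mean of Slco1a4 was 272 ± 47.8. Of 16 genes of drug metabolism and transport these 2 rose, none fell, and the median was 0.07. Abcb1a, which encodes the efflux pump P-glycoprotein, read 107 ± 14.3 and 133 ± 12.8 (0.28, adjusted p = 0.254). The xenobiotic receptor gene Nr1i2 and the drug-inducible cytochrome gene Cyp2b10 were dim, differed by -0.19 and -0.20 and did not pass.

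The brain endothelium list had the highest median of the 37 lists, 0.21. In whole tissue, fewer or more cells of a type and less or more RNA per cell cannot be told apart. Of its 17 measured genes Slco1a4 rose, none fell, and 9 were higher and none lower at an unadjusted p under 0.05. After Slco1a4 the smallest p belonged to 3 genes of uptake from blood. Mfsd2a, which carries docosahexaenoic acid into the brain as a lysophospholipid, read 119 ± 25.8 and 176 ± 32.2 (0.51, adjusted p = 0.0751), and all 11 treated animals lay above the vehicle median of 119. Its wild-type mean was 152 ± 38.0, between the 2 Tg2576 means. Tfrc, the transferrin receptor gene, read 532 ± 33.3 and 633 ± 58.6 (0.24, adjusted p = 0.0802), and Slc2a1, the glucose transporter gene, 407 ± 62.3 and 554 ± 78.1 (0.43, adjusted p = 0.122). Among markers of other kinds Vwf, which encodes von Willebrand factor, differed by 0.36 (adjusted p = 0.407), Cldn5, a tight junction gene, by 0.17, Tek by 0.02, Cdh5 by -0.03 and Pecam1 by -0.08, and none passed. In all, 14 of the 17 values were above 0. Summed over the list, signals ran from 2956 to 3546 in vehicle and from 3287 to 4230 in treated animals, with medians of 3174 and 3830.

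Flt1, a receptor of vascular endothelial growth factor, was called by 1 probe set and not by its others, all of them above 0. One probe set rose by 0.59 (SE 0.11, limma adjusted p = 0.0286), from 39.1 ± 12.9 to 66.0 ± 13.6 (SD, n = 11 each), beside 53.9 ± 11.4 in wild type. The brightest probe set differed by 0.21 (adjusted p = 0.624) and the others by 0.35 and 0.19. The call of the first held in 15 of 22 fits and ended without vehicle replicates 3, 7 and 9 and treated replicates 1, 6, 9 and 10. It also ended without vehicle replicates 3 and 4 together (0.60, adjusted p = 0.0712). With the mean over its probe sets Flt1 differed by 0.33 and passed (limma adjusted p = 0.0107 over genes). Among 10 genes of pericytes and smooth muscle none passed and the median was 0.03. Tagln, a contractile protein gene, had their smallest p (0.55, adjusted p = 0.417).

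**Figure D4:**
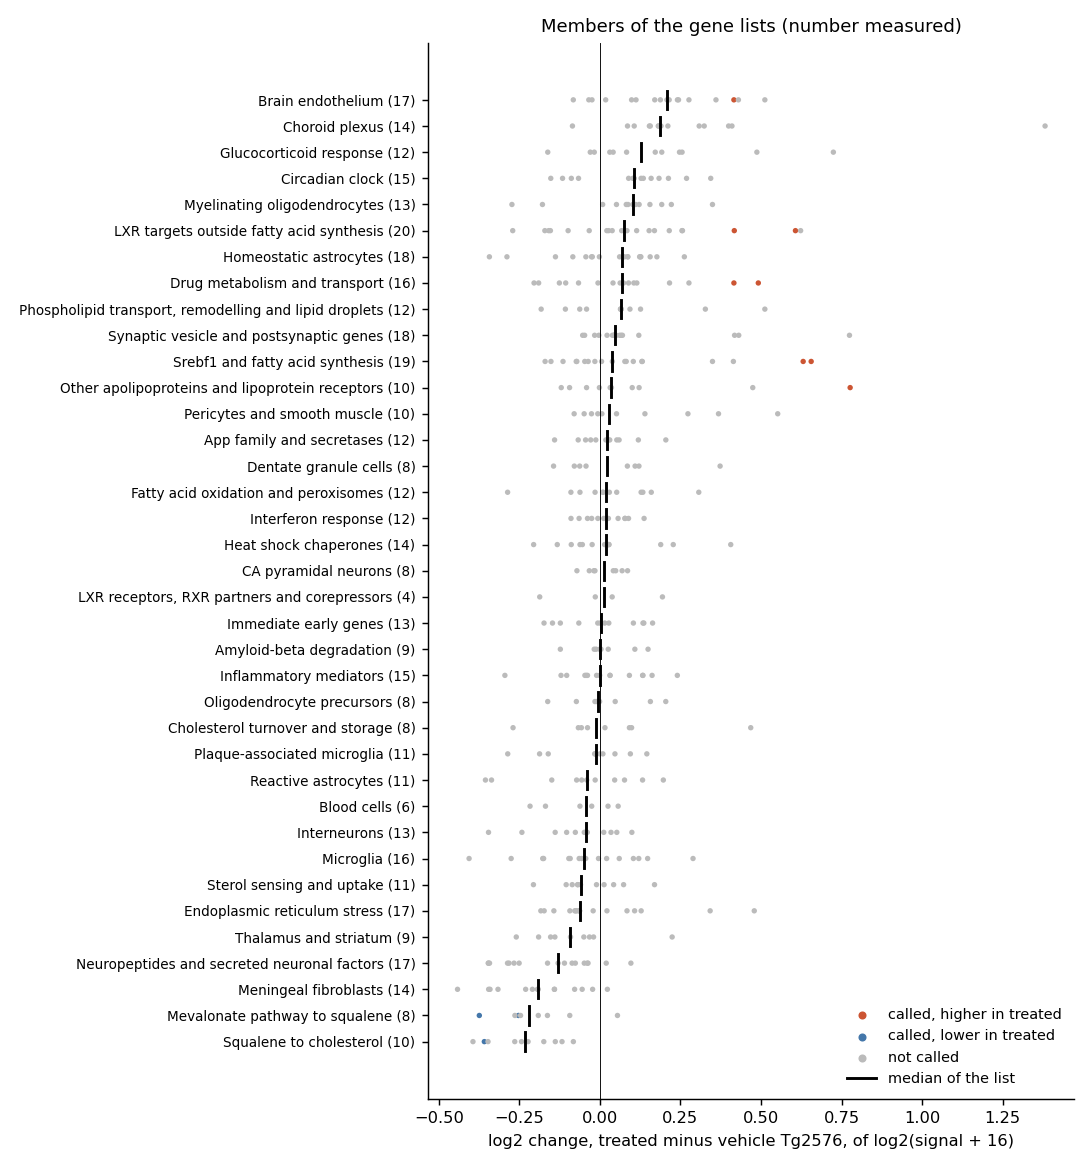
Log2 change between treated and vehicle Tg2576 animals (horizontal axis) of the measured members of 37 gene lists, 1 point per gene with the number measured in brackets, ordered by the list median (black bar). Red and blue points passed; the 2 cholesterol synthesis lists have the lowest medians, -0.22 and -0.23, and the brain endothelium list the highest, 0.21.

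The remaining called genes share no list. Higher in treated animals were Rnf167, a ubiquitin ligase of endosomes (0.26, limma adjusted p = 0.0323), Chd4, the remodelling ATPase of the NuRD complex (0.34, adjusted p = 0.0323), and Uxs1, which makes the xylose donor of proteoglycans (0.33, adjusted p = 0.0484). The brightest Uxs1 probe set differed by 0.37 and did not pass (adjusted p = 0.14). Lower were Ly6g6e, a membrane-anchored protein gene of the Ly6 family (-0.70, adjusted p = 0.028), Ttc9c (-0.30), Smim7 (-0.24), Tmem208 (-0.23) and Fam98a (-0.22). Ly6g6e was dim, with a median of 47.3 and a range of 28.7 to 116 in vehicle and a median of 31.2 and a range of 17.0 to 41.3 in treated animals, and 4 of 11 treated animals lay below every vehicle animal. The other 2 Smim7 probe sets differed by -0.03 and -0.0018, and the other 3 of Ttc9c by -0.13, -0.04 and -0.03, so those falls rest on 1 probe set each. The other 2 Chd4 probe sets, both dim, differed by 0.09, and with the mean over its probe sets Chd4 differed by 0.17 (adjusted p = 0.379). The called Chd4 probe set read 329 ± 46.2 in vehicle, 417 ± 36.3 in treated and 386 ± 45.7 in wild-type animals (SD, n = 11 each). The calls of Rnf167, Chd4, Tmem208, Fam98a, Ttc9c, Smim7 and Uxs1 held in 9, 13, 8, 10, 3, 4 and 2 of the 22 fits.

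Ppp1cb, a catalytic subunit of protein phosphatase 1, had a called fall that its other probe sets did not share. One probe set fell by 0.61 (SE 0.11, limma adjusted p = 0.00806), from 172 ± 37.0 to 107 ± 19.7 (SD, n = 11 each), and the call held in all 22 fits without 1 animal but not without vehicle replicates 3 and 4 together (-0.53, adjusted p = 0.0608). The highest vehicle values of this probe set, 235, 210 and 215, were those of replicates 3, 4 and 5, against 111 to 191 in the others. These were the vehicle arrays of highest Gapdh ratio. With that ratio as a covariate the probe set differed by -0.58 and passed (adjusted p = 0.0183). The brightest Ppp1cb probe set, at a mean of 1040.2, differed by 0.30, and the others by 0.11 and 0.28. The value for the gene is therefore uncertain in direction, and with the mean over its probe sets it was 0.02.

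Of 17 measured genes of neuropeptides and secreted neuronal factors none rose or fell, the median was -0.13, 15 were below 0, and 7 were lower and none higher at an unadjusted p under 0.05. Pnoc, the prepronociceptin gene, read 88.8 ± 10.00 in vehicle and 70.6 ± 11.6 in treated animals (SD, n = 11 each), a log2 difference of -0.28 (adjusted p = 0.102). Npy, a peptide of interneurons, read 661 ± 207 and 505 ± 70.3 (-0.35, adjusted p = 0.231), Vgf, a granin of activity-dependent secretion, 353 ± 57.2 and 289 ± 40.5 (-0.27, adjusted p = 0.231), and Tac2, which encodes neurokinin B, 54.3 ± 16.9 and 39.0 ± 9.73 (-0.34, adjusted p = 0.293). For Npy, vehicle replicate 10 read 1248, against 514 to 735 in the other vehicle animals, and the medians were 602 and 500. With 1 animal left out the Npy difference ran from -0.38 to -0.25. Sst, which marks a large class of interneurons, differed by -0.08, and the interneuron list as such had a median of -0.04 with none of 13 called, Npy again having its smallest p.

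Of 18 synaptic vesicle and postsynaptic genes none passed, the median was 0.05, and 4 were higher and none lower at an unadjusted p under 0.05. Camk2a, the kinase of synaptic plasticity, read 2393 ± 558 and 3151 ± 278 (0.43, adjusted p = 0.135), and all 11 treated animals lay above the vehicle median of 2512. Its wild-type mean was 3219 ± 479, above both Tg2576 means. The NMDA receptor gene Grin2b differed by 0.42 (adjusted p = 0.32) and the scaffold gene Dlg4 by 0.77 (adjusted p = 0.45). The lowest vehicle values of Camk2a, 1328 and 1630, were those of replicates 3 and 4, the arrays of highest Gapdh ratio, and without them it differed by 0.29 (adjusted p = 0.191). The Dlg4 values of vehicle replicates 3, 4 and 5 were 67.5, 70.7 and 147, against 357 to 717 in the other vehicle and 396 to 746 in treated animals. Without replicates 3 and 4 Dlg4 differed by 0.33 (adjusted p = 0.714) and Grin2b by 0.35 (adjusted p = 0.506). Immediate early genes, which follow neuronal firing, gave no call among 13, a median of 0.00 and no member at an unadjusted p under 0.05.

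Among astrocyte genes 0 of 18 passed in limma, with 3 higher and 2 lower at an unadjusted p under 0.05, and the median was 0.07. Ednrb, the endothelin B receptor gene, read 347 ± 34.9 and 282 ± 32.4 (SD, n = 11 each), a difference of -0.29 just outside the threshold (adjusted p = 0.0564), and all 11 treated animals lay below the vehicle median. Its other probe sets differed by -0.03 and 0.06. Aqp4, the water channel of the endfeet, read 608 ± 89.7 and 479 ± 88.6 (-0.34, adjusted p = 0.117), and the glutamate transporter gene Slc1a2 2576 ± 289 and 3096 ± 389 (0.26, adjusted p = 0.196). Of 11 reactive astrocyte genes none passed, and the median was -0.04. Gfap, their best-known member, read 310.2 ± 88.4 and 300.0 ± 49.6 (-0.01, adjusted p = 0.985), its other probe sets differed by -0.21 (adjusted p = 0.639) and -0.20 (adjusted p = 0.666), and S100a10 had the smallest p of the list (-0.36, adjusted p = 0.231). No astrocyte gene of either list was thus called.

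Genes of amyloid handling were not called. Of 12 genes of the App family and the secretases none passed, and the median was 0.02. App itself read 3533 ± 179 in vehicle and 3844 ± 281 in treated animals (SD, n = 11 each), a log2 difference of 0.12 (adjusted p = 0.444), and the second bright probe set differed by 0.08; probe sets for the mouse gene need not read the human transgene. Bace1, the beta-secretase gene, differed by 0.03 (adjusted p = 0.947). Of 9 genes of amyloid-beta degradation none passed, the median was 0.00 and lay below 0 under quantile normalization and centring, and none had an unadjusted p under 0.05. Ide, the insulin-degrading enzyme gene, read 248 ± 21.6 and 248 ± 22.2.

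Immune genes gave no call either. Of 16 microglial genes none passed, with a median of -0.05, and of 11 genes of plaque-associated microglia none passed, with a median of -0.01; at an unadjusted p under 0.05 each list held 3 lower members and no higher one. Olfml3, a secreted protein gene of microglia, read 104 ± 18.1 and 76.0 ± 21.6 (-0.41, adjusted p = 0.293), and Lyz2, the lysozyme gene, 65.0 ± 20.2 and 49.7 ± 14.1 (-0.29, adjusted p = 0.519). Of 15 inflammatory mediators none passed, with a median of -0.0007. Ccl2, a monocyte chemokine gene, had the smallest p (0.24, adjusted p = 0.516) at signals of 2.64 and 6.32. Of 12 interferon response genes none passed and none had an unadjusted p under 0.05, with a median of 0.02.

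Within the treated group, animals were compared by their Abca1 signal, which asks whether the level of Abca1 went with that of other genes. Each animal has 1 array and no value before dosing, so the size of a response in single animals is not known. Across the 11 treated animals Abca1 and Srebf1 gave Pearson's r = 0.629 (permutation p = 0.0357, adjusted p = 0.414 over 20 relations) and Spearman's rho = 0.436 (permutation p = 0.184, adjusted p = 0.5). Without the 2 animals farthest from the Abca1 median, treated replicates 2 and 9, r was 0.234, so the relation rests on them. Abca1 and Mylip gave r = 0.618 (permutation p = 0.0414, adjusted p = 0.414) and rho = 0.464 (permutation p = 0.154), and r was 0.02 without the same 2 animals. Abca1 and Idi1 gave r = -0.497 (permutation p = 0.134, adjusted p = 0.536) and rho = -0.636 (permutation p = 0.0393, adjusted p = 0.5), and r was -0.46 without them. None of the 20 relations, 10 in each Tg2576 group, passed after adjustment; unadjusted, 2 had a Pearson p and 1 a Spearman p under 0.05.

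**Figure D5:**
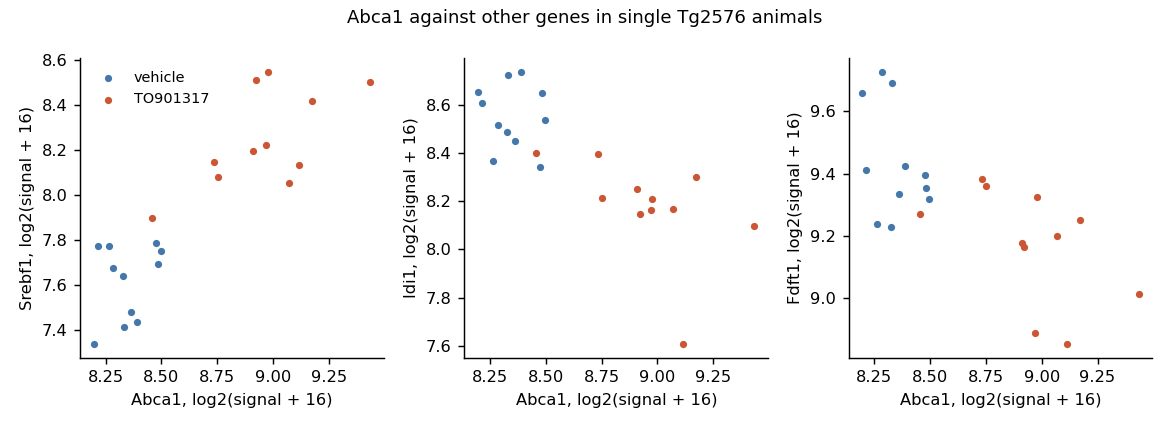
Abca1 signal (horizontal axis) against Srebf1, Idi1 and Fdft1 (vertical axes), all as log2(signal + 16), 1 point per Tg2576 animal, 11 treated in red and 11 vehicle in blue. Within the treated points Srebf1 gives r = 0.629, which falls to 0.234 without the 2 animals of lowest and highest Abca1 signal.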

How the data were processed

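The authors deposited one linear intensity per probe set and array, made with MAS5 per the submitters' processing notes, for which no version or setting was stated. Depth has no counterpart on arrays, and 11 arrays per group set the precision. Of 45101 probe sets, 64 controls were left out, 34945 named 1 gene, 932 several and 9160 none. Signals were tested as log2(signal + 16) with limma 3.58.1 in R 4.3.3 (lmFit, eBayes with trend and robust) over 33 arrays in 3 group means, with no filter and Benjamini-Hochberg adjustment over 45037 probe sets. A gene in a list is its probe set of highest mean signal. Named genes are the called probe sets with 1 gene, the called or smallest-p member of each list, and a few fixed genes, among them Abca1, Apoe, App and Gfap; some items are not reported here. The 37 lists held 485 genes, 452 of them measured; members and lists were chosen with earlier results of these data known. Permutation tests drew 100000 resamples and were two-sided. The procedure was tested on simulated data. Alternatives covered the pseudocount, filter, scaling, probe set rule, arrays, variance model, replicate number and covariates.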

Additional observations from a re-analysis of the deposited data

Results flagged for a closer look

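A signal appeared outside the probe sets tested, among the 64 Affymetrix control probe sets. The 3' control for the mouse transferrin receptor was higher in treated than in vehicle Tg2576 animals by 0.417103 on the log2(signal + 16) scale (limma adjusted p = 0.0457 over the 64 controls), at 47.8 ± 11.5 against 31.8 ± 8.25 (SD, n = 11 each) and 29.7 ± 9.59 in wild type. The 5' control of the same transcript was higher by 0.30514 (adjusted p = 0.0457), at 9.25 ± 3.61 against 4.47 ± 3.29. The middle control differed by 0.11 (adjusted p = 0.692). These controls read the transcript of Tfrc, whose own probe set gave 0.24 in the comparison and did not pass there (adjusted p = 0.0802). The controls were fitted apart, without the trend and robust settings, so the 2 adjusted p-values cannot be set side by side. Unadjusted, the limma p was 0.00109 for the 3' and 0.00143 for the 5' control. In the main fit an unadjusted p of 0.00133, that of Apoe, gave an adjusted p of 0.231.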

How the results depend on the processing

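The count of 31 probe sets was 16 with each array centred on its median, 9 without the trend and robust variance model, 18 with scores of choroid plexus, meningeal and dentate granule cell markers as covariates, and 7 without vehicle Tg2576 replicates 3 and 4; with 1 animal left out it ran from 7 to 40. Between 22 and 38 passed under the other alternatives, and 24 with the replicate number as a replicate block. Deviations of same-numbered treated and vehicle animals correlated at r from -0.03 to 0.11, over 0.1 in 1 of 11 pairs. Of the 11 treated animals 2 correlated best with their own number. These values do not settle whether animals of 1 number shared an order of handling, which was not tested. Centring moved the median over all probe sets by -0.0048. Ppp1cb turned to 0.0197 with the mean over its probe sets, the other probe sets of this gene being above 0. With 1 animal left out, Gfap, at -0.01, ran from -0.0711 to 0.0505 and was above 0 in 7 of 22 fits. The r of Abca1 with Cyp2d22 in treated animals ran from -0.00406 to 0.352. In vehicle animals r ran from -0.124 to 0.344 with Mylip, from -0.277 to 0.116 with Idi1, from -0.103 to 0.229 with Cyp2d22 and from -0.42 to 0.0675 with Mfsd2a, and that with Cyp2d22 was -0.0347 under quantile normalization. The causes of the changes in r and in the counts were not tested. Signals near or under the pseudocount of 16, such as those of Ccl2, give no firm size.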

Other observations

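Clock genes, glucocorticoid-responsive genes and lipid handling beyond sterols gave no call in limma but held single genes of interest. Of 15 circadian clock genes 0 passed, the median log2 difference was 0.11, and 5 were higher and none lower at an unadjusted p under 0.05. Per3, a period gene, read 160 ± 23.6 in vehicle and 194 ± 16.7 in treated Tg2576 animals (SD, n = 11 each), 0.27 higher with an adjusted p of 0.122, with 203 ± 22.1 in wild type. Cry1, a repressor of the clock, read 38.2 ± 11.2 and 52.2 ± 11.5 (0.34, adjusted p = 0.32), and in both genes all 11 treated animals lay above the vehicle median. Of 12 glucocorticoid-responsive genes none passed and the median was 0.13, with Plin4, a lipid droplet protein gene, at 49.3 ± 20.2 and 91.8 ± 35.5 (0.72, adjusted p = 0.369). Of 12 genes of phospholipid transport and lipid droplets none passed (median 0.07), and Lpin2, a phosphatidate phosphatase gene, read 459 ± 49.5 and 401 ± 23.6 (-0.18, adjusted p = 0.219). Of 12 genes of fatty acid oxidation and peroxisomes none passed (median 0.02). Lonp2, the peroxisomal protease gene, differed by -0.29 (adjusted p = 0.0665), while its other probe sets ran from -0.14 to 0.24.

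Chaperones and the remaining cell types gave values without a call. Of 14 heat shock chaperones none passed (median 0.02, and below 0 under quantile normalization), with Hspa2 at 200.2 ± 48.3 and 266 ± 33.8 (0.41, adjusted p = 0.0751), and of 17 endoplasmic reticulum stress genes none passed (median -0.06), with Sdf2l1 at 0.34 (adjusted p = 0.398). In both genes the 3 lowest vehicle values, 124 to 159.8 for Hspa2 and 8.39 to 19.3 for Sdf2l1, were those of replicates 3, 4 and 5, the vehicle arrays with the highest 3' to 5' Gapdh ratio. Without replicates 3 and 4 Hspa2 differed by 0.34 (adjusted p = 0.209) and Sdf2l1 by 0.18 (adjusted p = 0.692). Of 13 myelin genes none passed (median 0.10), with Mbp, the myelin basic protein gene, at 0.16 (adjusted p = 0.356), and of 8 genes of oligodendrocyte precursors none passed (median -0.01), with Gpr17 at -0.16. Choroid plexus genes had a median of 0.19 over 14 members, 13 of them above 0, and Ttr, the transthyretin gene, read from 60.2 to 6008 in vehicle and from 800.4 to 6988 in treated animals (1.38, adjusted p = 0.623). Of 14 meningeal genes 13 were below 0, with a median of -0.19 and Dcn, the decorin gene, at -0.44 (adjusted p = 0.631). The 8 dentate granule cell genes had a median of 0.02 with Tdo2 at 0.37 (adjusted p = 0.341), the 8 CA pyramidal genes 0.01 with Rgs14 at -0.07, the 9 thalamus and striatum genes -0.09 with Rgs9 at -0.26 (adjusted p = 0.305), and the 6 blood cell genes -0.04 with S100a9 at -0.22. No member of these 6 lists passed.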
